A study of Homo sapiens with 8 samples.

Results

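SR proteins and heterogeneous nuclear ribonucleoproteins (hnRNPs) are the RNA-binding proteins that help decide which exons enter an mRNA. SR proteins carry RNA-recognition motifs and a domain rich in arginine-serine repeats, bind exonic enhancers and recruit the splicing machinery, and are controlled by phosphorylation of those repeats. hnRNPs coat nascent transcripts and often oppose exon inclusion. Many of them carry arginine-glycine repeats that protein arginine methyltransferases modify, and hnRNP A1 has been reported as a substrate of PRMT7, an enzyme that places a single methyl group on arginine. Both families limit their own mRNA by alternative splicing into forms that nonsense-mediated decay removes, so splicing can affect the level of their transcripts.

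Protein-coding genes were chosen by symbol alone: every SRSF gene, every gene whose symbol starts with HNRNP, the SR-like regulators TRA2A and TRA2B, and the factors of the 3′ splice site U2AF1, U2AF2 and SF3B1. These were 44 of the 58735 genes measured, namely 12 SRSF, 27 HNRNP, 2 TRA2 and 3 genes of the 3′ splice site. Their transcripts were compared in the prostate cancer cell line PC3, labelled wild type, after lipofection of synthetic RNA and 48 h of culture, with 4 siCtrl and 4 siPRMT7 libraries. Sample titles read si, whereas the matching library names read sh. All groups share the transfection, and an untransfected group was not analysed here. The labels do not say whether replicates were separate cultures, so p-values measure only the spread between these samples, which may be technical. The measurement is of gene-level mRNA, and arginine methylation and isoforms were not measured here.

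The libraries held 14526030 to 15724862 fragments. Levels are given as FPKM, fragments per kilobase of exon scaled to library size, which corrects for gene length and depth. PRMT7 (ENSG00000132600) had 5.24, 4.86, 5.10 and 5.25 FPKM in siCtrl replicates 1 to 4 and 4.62, 4.31, 5.01 and 4.82 FPKM in siPRMT7 replicates 1 to 4. The siPRMT7 mean was 8.29% lower, with 3 of 4 libraries below every siCtrl library and the groups overlapping, and the difference did not pass a two-sided exact permutation test (p = 0.0571, the smallest possible being 0.0286). The targeted transcript thus differed little between the libraries compared below. The epithelial keratins KRT8 (53.9 to 66.8 FPKM) and KRT18 (48.97 to 62.04 FPKM) were abundant in all 8 libraries, and KLK3, which encodes prostate-specific antigen, was listed at 0. Of the leukocyte markers, CD3E was listed at 0, PTPRC lay at 0.0726 to 0.194 FPKM and CD14 at 0.490 to 1.27 FPKM. Of the endothelial markers, PECAM1 lay at 2.83 to 3.64 FPKM, while CDH5 reached at most 0.0952 and VWF 0.0192 FPKM. Of the fibroblast markers, COL1A1 lay at 6.13 to 7.53 FPKM, while COL1A2 reached at most 0.0280 and DCN 0.0107 FPKM. On the first principal component of all genes, which held 31.4% of the variance, siPRMT7 replicate 2 lay at 28.4, siCtrl replicate 4 at -11.9 and the other 6 between -7.59 and 7.36. The 86 ribosomal protein genes took 3.89% of the fragments of siPRMT7 replicate 2 and 2.93 to 3.41% of those of the others.

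Transcripts of SR proteins and hnRNPs were abundant in PC3 cells and did not separate the siPRMT7 from the siCtrl libraries. Of the 44 genes, 37 reached the minimum of 1 FPKM in at least 4 libraries, and each of these did so in all 8. Taking each gene's median over the 8 libraries, their levels ranged from 3.07 to 118.9 FPKM with a median of 30.4 FPKM, against 6.24 FPKM over all 13436 genes that reached the minimum. No member passed limma's test at an adjusted p of 0.05, with Benjamini-Hochberg adjustment over all genes, against 2 of 13436 genes (0.0149%). At an unadjusted p under 0.05 there were 2 members, SRSF9 and SRSF5, both higher in siPRMT7, against 13.2% of all genes (7.67% higher and 5.49% lower). The voom test on rebuilt fragment counts also called 0 members. No member had groups that did not overlap, against 8.57% of all genes (4.14% higher and 4.43% lower). These shares of the members were not above those of all genes.

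The differences between the group means were small for every member tested. On the log2(FPKM + 1) scale they ran from -0.10 for SRSF1 to 0.28 for SRSF9, with a median of 0.02 over the 37 members and -0.0015 over all genes. The median was -0.01 without siPRMT7 replicate 2. It was -0.02 on a scale where each library sums to the same total per length, on which the median of all genes was -0.04, and -0.03 after quantile normalization. The mean was higher in siPRMT7 for 24 of 37 members and for 49.5% of all genes. All 37 confidence intervals (95%) lay within a 1.5-fold difference in either direction, and 29 of them within 1.2-fold: 8 of 11 SR genes, 17 of 22 hnRNP genes, TRA2A, TRA2B, U2AF2 and SF3B1. The SR genes summed to 0.210 ± 0.00923% of all fragments in siCtrl and 0.222 ± 0.0137% in siPRMT7, and the hnRNP genes to 0.567 ± 0.00495% and 0.572 ± 0.0249% (SD, n = 4 each). The summed FPKM of the SR genes was 391 ± 15.96 and 418 ± 30.0, and that of the hnRNP genes 927 ± 12.8 and 946 ± 48.7 (SD, n = 4 each).

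**Figure D1:**
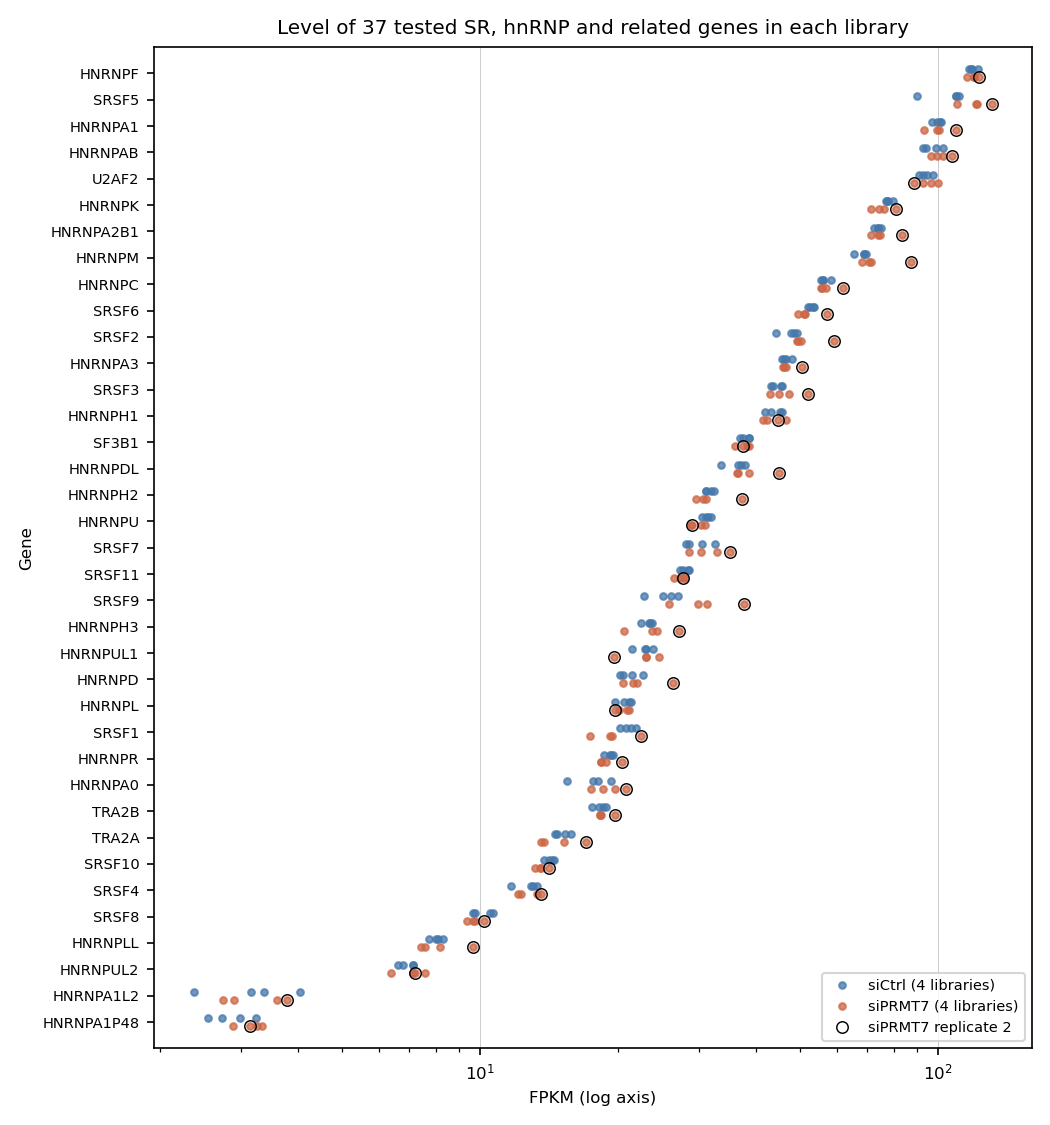
FPKM on a log axis for the 37 members that reached the minimum level, 1 point per library, ordered by the median over libraries, with siCtrl above and siPRMT7 below each line. The circled point is siPRMT7 replicate 2, which was the highest of the 8 libraries for 25 of the 37.

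**Figure D2:**
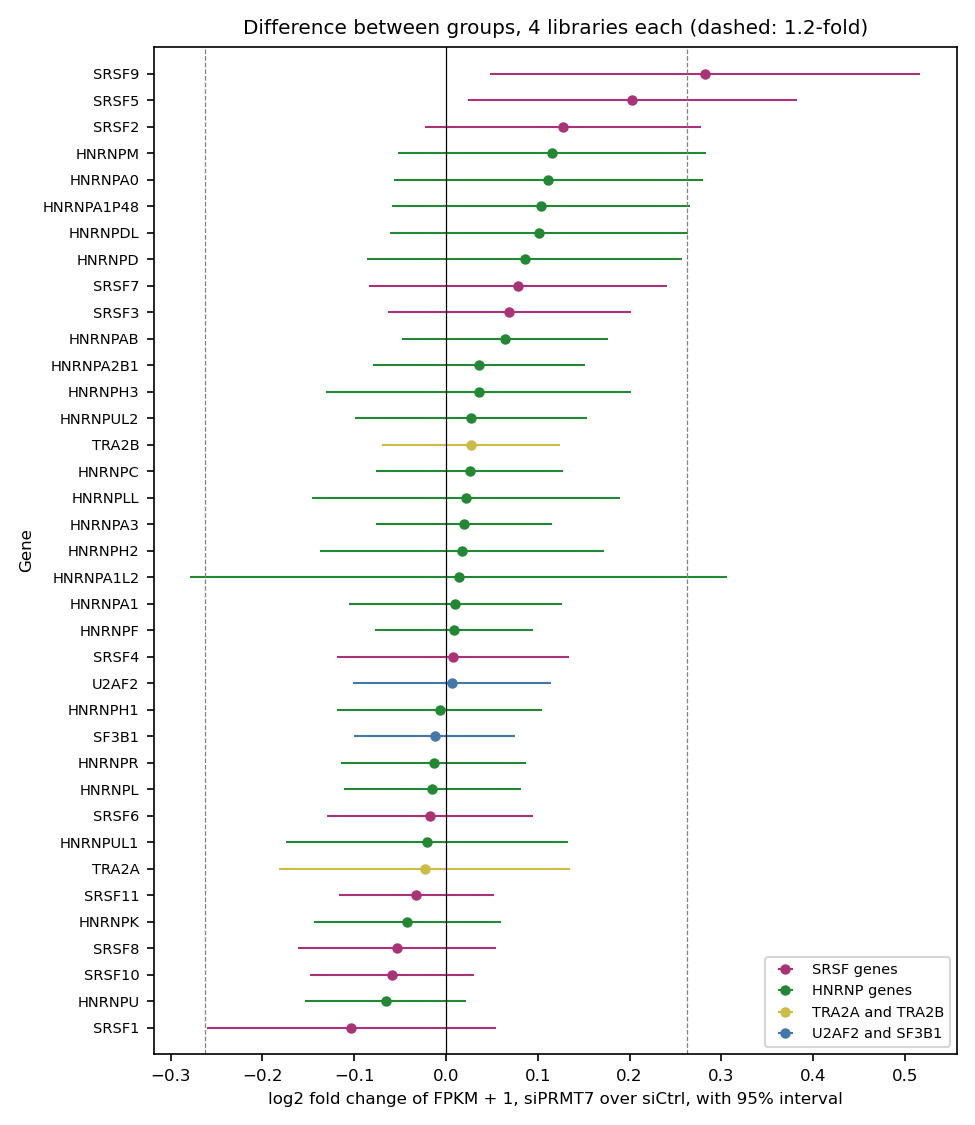
Difference between siPRMT7 and siCtrl means (4 libraries each) on the log2(FPKM + 1) scale, with 95% confidence intervals from limma. All intervals stay inside 1.5-fold, and those of 29 members inside the dashed lines at 1.2-fold.

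Among the SR genes, SRSF5 was the most abundant in FPKM and SRSF8, a retrocopy related to SRSF2, the least abundant of those tested. SRSF5, SRSF6, SRSF2 and SRSF3 together made up 63.2 to 65.5% of the summed SR FPKM in each library, and SRSF5 alone 24.5 to 29.9%. SRSF5 (ENSG00000100650, chromosome 14, 69726900 to 69772005, plus strand) had 109.4, 110.8, 109.3 and 90.05 FPKM in siCtrl replicates 1 to 4 and 109.6, 131.1, 120.7 and 121.3 FPKM in siPRMT7 replicates 1 to 4. SiCtrl replicate 4 lay below the rest. SiPRMT7 replicates 2, 3 and 4 exceeded all controls, while siPRMT7 replicate 1 lay among them. The log2 difference was 0.20 (SE 0.0792, interval 0.02 to 0.38, limma, unadjusted p = 0.0307, adjusted p = 0.333), and it was 0.13 without siCtrl replicate 4 and 0.09 without that library and siPRMT7 replicate 2.

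SRSF9, a small SR protein with a short arginine-serine domain, had the largest difference of all 37 members. It had 25.1, 26.1, 27.0 and 22.8 FPKM in siCtrl and 25.8, 37.7, 31.3 and 29.9 FPKM in siPRMT7, so that siPRMT7 replicates 2, 3 and 4 again exceeded all controls and siPRMT7 replicate 1 did not. The siPRMT7 mean was 1.23 times the siCtrl mean, a log2 difference of 0.28 (SE 0.104, interval 0.05 to 0.52, limma, unadjusted p = 0.0233, adjusted p = 0.310). This was 0.19 without siPRMT7 replicate 2 and 0.14 without that library and siCtrl replicate 4. SRSF9 (ENSG00000111786, chromosome 12, 120461668 to 120469793, minus strand) shares 1729 of its 3744 exonic bases (46.2%) with GATC, a gene on the opposite strand at 5.80 to 7.79 FPKM. No source used here states whether strand entered the authors' counting, so fragments of the pair may not be told apart. GATC differed by -0.11 on the log2 scale (limma, adjusted p = 0.476).

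A RefSeq promoter (GRCh38.p14) of 300 bases, 250 before and 50 after the start, was matched for 39 of the 44 members by symbol and searched on both strands for 5 motifs. Of these 39, 25 held the GC box GGGCGG (64.1%, against 44.6% of 27305 promoters of the same length) and 18 the box CCAAT (46.2% against 35.7%). The E-box CACGTG was found in 8 (20.5% against 7.43%), the ETS-family motif CCGGAAGT in 4 (10.3% against 4.44%) and the TATA box TATAAA in 5 (12.8% against 11.95%). The members' promoters had a median G or C content of 64.0%, against 58.3% for all promoters, and a median of 30 CpG dinucleotides, against 14. None of the motifs contains another, and a match describes letters only. The 27305 promoters were not limited to genes expressed in PC3, and promoters of genes at a like level were not compared.

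The other SR genes lay within smaller differences. SRSF2, which binds exonic enhancers through its RNA-recognition motif, had 48.3, 49.2, 47.7 and 44.2 FPKM in siCtrl and 49.1, 59.1, 49.3 and 50.2 FPKM in siPRMT7. Only siPRMT7 replicate 2 stood well above the others, and the log2 difference of 0.13 (limma, adjusted p = 0.434) was 0.06 without that library. SRSF2 shares 1106 of 3017 exonic bases (36.7%) with MFSD11 on the opposite strand, which lay at 3.84 to 4.50 FPKM.

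SRSF1, the founding SR protein and a known proto-oncogene, had the lowest log2 difference of the members, -0.10 (limma, adjusted p = 0.523), which was -0.17 without siPRMT7 replicate 2 and -0.05 without siPRMT7 replicate 4. It had 20.2, 20.8, 21.9 and 21.3 FPKM in siCtrl and 19.2, 22.4, 19.4 and 17.4 FPKM in siPRMT7, with siPRMT7 replicate 2 the highest of all 8 libraries and the other 3 siPRMT7 libraries below every siCtrl library. An annotated gene on the same strand, AC015813.2, covers 1890 of its 3340 exonic bases (56.6%) and was listed at 0 FPKM in all 8 libraries. Another, AC015813.5 on the opposite strand, covers 440 of them (13.2%) and lay at 0.704 to 2.08 FPKM. How fragments in shared bases were counted is not given, so the level of SRSF1 is uncertain. SRSF8 had 10.6, 10.5, 9.74 and 9.65 FPKM in siCtrl and 9.37, 10.2, 9.74 and 9.64 FPKM in siPRMT7, with overlapping groups.

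SRSF3, the smallest SR protein, had 44.4 ± 1.15 and 46.7 ± 3.84 FPKM, and SRSF7, its close relative with a zinc knuckle, 29.9 ± 2.03 and 31.7 ± 2.87 FPKM (siCtrl and siPRMT7, SD, n = 4 each). SRSF6 had 52.8 ± 0.738 and 52.2 ± 3.43 FPKM, SRSF4 12.7 ± 0.718 and 12.8 ± 0.734 FPKM, and SRSF11 28.0 ± 0.616 and 27.4 ± 0.677 FPKM (SD, n = 4 each). SRSF10, a splicing repressor when dephosphorylated, differed by -0.06 on the log2 scale (limma, adjusted p = 0.521). SRSF12 had 1 to 5 fragments per library and was not tested. The SR-like TRA2B, which binds purine-rich enhancers, had 18.8, 18.1, 18.6 and 17.5 FPKM in siCtrl and 18.3, 19.7, 18.3 and 18.2 FPKM in siPRMT7. Its paralog TRA2A had 15.8, 14.6, 14.7 and 15.3 FPKM and 15.2, 17.0, 13.7 and 13.6 FPKM. Both were highest in siPRMT7 replicate 2, and their groups overlapped.

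HNRNPF, whose protein binds G-rich RNA, had the highest FPKM of the hnRNP genes and was nearly flat across libraries. HNRNPF (ENSG00000169813, chromosome 10, 43385617 to 43409166, minus strand) had 116.6, 117.7, 122.4 and 118.3 FPKM in siCtrl and 115.7, 122.7, 119.9 and 119.6 FPKM in siPRMT7. The highest and the lowest library were both labelled siPRMT7, and the log2 difference was 0.01 (limma, adjusted p = 0.929). Together HNRNPF, HNRNPA1, HNRNPAB, HNRNPK, HNRNPA2B1 and HNRNPM made up 57.1 to 58.2% of the summed hnRNP FPKM in each library. By fragments the order differed: HNRNPA2B1 (9713 to 11582 fragments) and HNRNPU (9769 to 11223 fragments) had the most. FPKM divides by annotated exonic length, which is 22512 bases for HNRNPU and 3253 for HNRNPF.

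HNRNPA1, the best known antagonist of SRSF1 in exon choice, had 96.9, 99.3, 101.0 and 101.2 FPKM in siCtrl and 93.3, 109.1, 99.3 and 100.2 FPKM in siPRMT7. SiPRMT7 replicates 1 and 2 were the lowest and the highest of the 8 libraries, and the log2 difference was 0.01 with an interval of -0.11 to 0.13 (limma, adjusted p = 0.941). HNRNPM, a regulator of splicing in epithelial-mesenchymal transition, had 69.6, 65.3, 68.9 and 68.8 FPKM and 68.1, 87.2, 71.2 and 70.6 FPKM. Its log2 difference of 0.12 (limma, adjusted p = 0.507) was 0.04 without siPRMT7 replicate 2. HNRNPU, a nuclear scaffold protein, had 31.4, 31.0, 30.6 and 32.0 FPKM and 30.9, 29.1, 28.9 and 30.4 FPKM. There 3 of 4 siPRMT7 libraries lay below every siCtrl library, at a log2 difference of -0.07 (limma, adjusted p = 0.474). Of the 37 members tested, 18 share exonic bases with another annotated gene, 6 of them over more than 10% of their length. Beside SRSF1, SRSF9 and SRSF2 these were HNRNPUL2 (44.1%, with the read-through HNRNPUL2-BSCL2), HNRNPH2 (16.3%, with the read-through RPL36A-HNRNPH2) and HNRNPU (15.6%, with COX20 on the opposite strand), whose levels are uncertain to that extent.

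HNRNPK, which binds C-rich RNA, had 77.8 ± 1.21 and 75.6 ± 3.96 FPKM, and HNRNPA2B1, a close relative of HNRNPA1, 73.7 ± 1.07 and 75.7 ± 5.18 FPKM (siCtrl and siPRMT7, SD, n = 4 each). HNRNPC, which binds uridine tracts and shields cryptic exons, had 56.4 ± 1.24 and 57.5 ± 2.97 FPKM, and HNRNPL, which binds CA repeats, 20.7 ± 0.747 and 20.5 ± 0.690 FPKM (SD, n = 4 each). Of the 22 hnRNP genes tested, 16 had a higher mean in siPRMT7 and 6 a lower one, with log2 differences between -0.07 and 0.12 and adjusted p from 0.474 to 0.968 (limma). Of the others, HNRNPCL1 and the read-through gene HNRNPUL2-BSCL2 had 0 to 2 fragments per library. HNRNPCL2, HNRNPCL3 and HNRNPCL4 had 0 fragments in each, below a floor of 3 fragments or 0.191 to 0.207 ppm of a library.

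Copies of HNRNPA1 limit what could be counted for the least abundant members. HNRNPA1L2, a retrocopy with an open reading frame, and HNRNPA1P48, a copy annotated as protein-coding, were the lowest of the tested members. The coding sequences of HNRNPA1 and HNRNPA1L2 have 945 of 960 bases in common (98.4%), compared without gaps between transcripts of equal coding length. A stretch of 90 bases from the region coding the glycine-rich part of hnRNP A1, where arginine-glycine repeats lie, shows how alike they are. Positions are on GRCh38, and capitals in HNRNPA1L2 mark the 3 bases that differ from HNRNPA1.
HNRNPA1, chr12:54282573-54282662, plus strand: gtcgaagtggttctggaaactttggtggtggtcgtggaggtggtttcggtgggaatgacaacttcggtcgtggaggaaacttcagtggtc
HNRNPA1L2, chr13:52643076-52643165, plus strand: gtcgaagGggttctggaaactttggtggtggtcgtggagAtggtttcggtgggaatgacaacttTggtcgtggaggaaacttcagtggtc
HNRNPA1L2 had 3.17, 2.37, 4.04 and 3.37 FPKM in siCtrl and 2.91, 3.78, 3.59 and 2.74 FPKM in siPRMT7, from 52 to 84 fragments. HNRNPA1P48 had 3.24, 2.73, 2.99 and 2.54 FPKM and 3.34, 3.15, 3.25 and 2.88 FPKM, from 71 to 100 fragments. The groups overlapped for both. Of the 100-base windows of their annotated transcripts, 31.6% of those of HNRNPA1L2 and 36.1% of those of HNRNPA1P48 also occur in another gene, and their levels are therefore uncertain. Abundant members share windows as well: 17.7% of those of HNRNPA1 occur in 12 other genes and 11.0% of those of HNRNPA3 in 8. The levels of HNRNPA1 and HNRNPA3 are uncertain to that extent. In all, 17 members have 126 annotated pseudogenes, 59 of which had fragments. The 74 pseudogenes of HNRNPA1 held 88 to 137 fragments per library, 1.04 to 1.72% of the fragments of HNRNPA1 and these pseudogenes together.

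Of the factors that read the 3′ splice site, U2AF2 and SF3B1 were abundant and differed little, while U2AF1 could not be measured apart from a copy. U2AF2 (ENSG00000063244, chromosome 19, 55654146 to 55674715, plus strand), the large subunit that binds the polypyrimidine tract, had 92.4, 90.7, 97.2 and 94.6 FPKM in siCtrl and 92.6, 88.4, 96.3 and 99.7 FPKM in siPRMT7, with overlapping groups and a log2 difference of 0.01 (limma, adjusted p = 0.958). SF3B1 (ENSG00000115524, chromosome 2, 197389784 to 197435091, minus strand), the U2 snRNP subunit at the branch point, had 36.9, 37.5, 38.7 and 38.7 FPKM and 38.3, 37.5, 38.5 and 36.1 FPKM, with overlapping groups and a log2 difference of -0.01 (limma, adjusted p = 0.899).

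U2AF1, the small subunit that contacts the AG at the intron's end and is an obligate partner of U2AF2 in the textbook heterodimer, was listed below 1 FPKM in every library and was not tested. U2AF1 (ENSG00000160201, chromosome 21, 43092956 to 43107587, minus strand) had 0.753, 0.321, 0.844 and 0.434 FPKM in siCtrl and 0.770, 0.437, 0.455 and 0.388 FPKM in siPRMT7. The FPKM of U2AF2 was 115 to 283 times that of U2AF1. The gene U2AF1L5 (chromosome 21, 6484623 to 6499261, minus strand) holds the same 720 coding bases as U2AF1 without a difference, and 89.4% of the 11807 distinct 100-base windows of U2AF1 also occur in U2AF1L5. The same 90 coding bases from both places show why a short read cannot be placed.
U2AF1, chr21:43095447-43095536, minus strand: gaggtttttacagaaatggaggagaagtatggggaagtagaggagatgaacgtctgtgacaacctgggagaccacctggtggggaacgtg
U2AF1L5, chr21:6487116-6487205, minus strand: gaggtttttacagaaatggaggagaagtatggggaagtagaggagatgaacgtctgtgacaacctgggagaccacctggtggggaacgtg
Fragments assigned to U2AF1 numbered 133, 57, 142 and 70 in siCtrl replicates 1 to 4 and 133, 73, 76 and 63 in siPRMT7 replicates 1 to 4. Those assigned to U2AF1L5 numbered 70, 614, 69 and 108 in siCtrl and 67, 142, 540 and 253 in siPRMT7. U2AF1 thus took from 8.49 to 67.3% of the pair's fragments, and both ends of that range lay among the siCtrl libraries. The sum over the pair was 203, 671, 211 and 178 in siCtrl and 200, 215, 616 and 316 in siPRMT7, so the groups overlapped and siCtrl replicate 2 and siPRMT7 replicate 3 stood far above the other 6. How reads with more than 1 placement were counted is not given, and the level of U2AF1 cannot be read from this table.

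**Figure D3:**
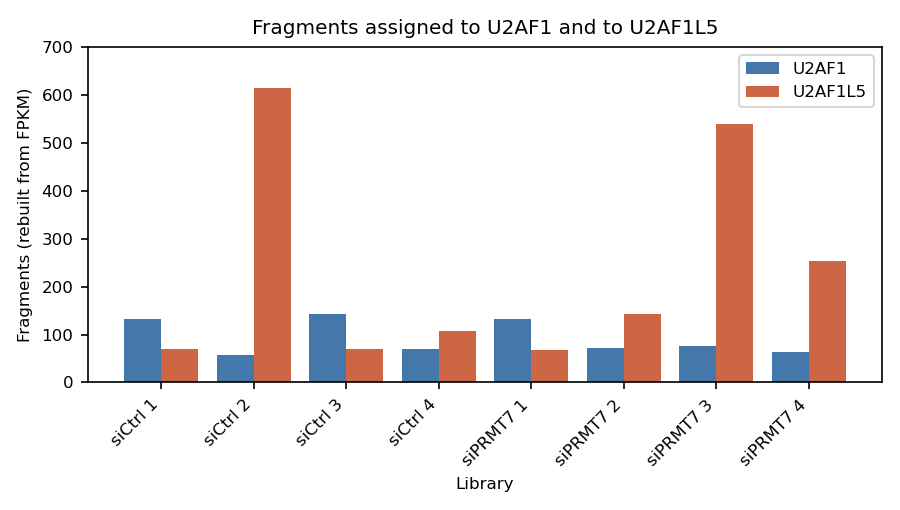
Fragments assigned to U2AF1 and to its copy U2AF1L5 in each of the 8 libraries, rebuilt from FPKM and gene length. U2AF1 ranged from 57 to 142 fragments and U2AF1L5 from 67 to 614, with the highest U2AF1L5 bars in siCtrl replicate 2 and siPRMT7 replicate 3.

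Among the libraries, siPRMT7 replicate 2, held the highest value of most members. It was the highest of the 8 libraries for 25 of 37 members (67.6%), against 29.6% of all genes and 38.7% of the 7698 genes with at least 5 FPKM. These were 8 of 11 SR genes, 15 of 22 hnRNP genes, TRA2A and TRA2B. All 11 SR genes and 19 of 22 hnRNP genes were above their mean of the other 7 libraries in it, as were 32 of 37 members (86.5%) and 53.0% of all genes. The median excess over the other 7 libraries was 0.16 on the log2 scale for SR genes, 0.13 for hnRNP genes and 0.02 for all genes. The largest was 0.48, for SRSF9, followed by HNRNPM at 0.33.

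The members that went the other way in that library were HNRNPUL1 (-0.23), U2AF2 (-0.10), HNRNPU (-0.08), HNRNPL (-0.07) and SF3B1 (-0.01), as log2 differences from the mean of the other 7. HNRNPUL1 and U2AF2 had their lowest value there, 2 of 37 members against 27.1% of all genes and 27.6% of those with at least 5 FPKM. SiCtrl replicate 4 was the lowest library for 9 of 37 members, against 15.2% of all genes. Both ends at once, highest in siPRMT7 replicate 2 and lowest in siCtrl replicate 4, were found for SRSF2, SRSF4, SRSF5, SRSF7, SRSF9, HNRNPA0, HNRNPDL and TRA2B. These were 8 of 37 members (21.6%), against 7.77% of all genes and 10.8% of those with at least 5 FPKM. The part of these libraries' other properties in these values was not tested. The median coefficient of variation of the members was 3.14% among siCtrl and 6.56% among siPRMT7 libraries, against 6.45% and 9.96% over all genes. The members' median level was also higher, 30.4 against 6.24 FPKM, and the variation of genes at a like level was not compared.

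**Figure D4:**
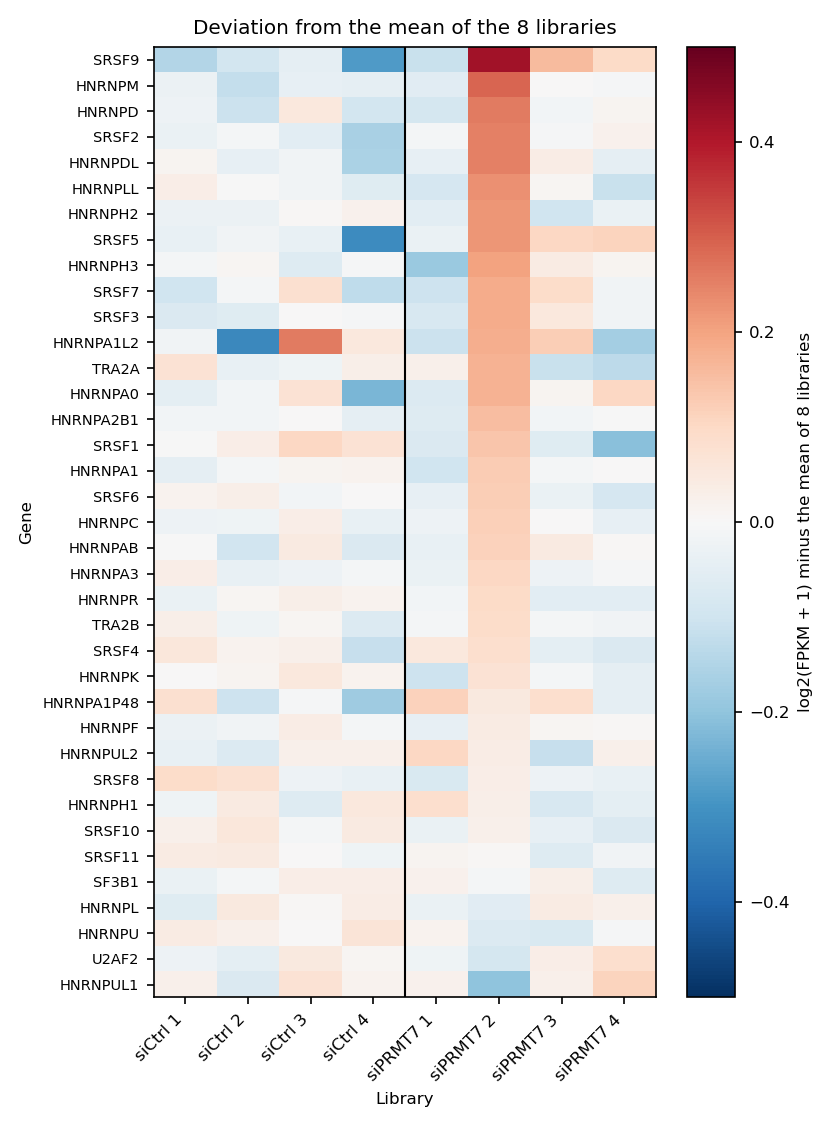
Deviation of each library from the mean of the 8 libraries, on the log2(FPKM + 1) scale, for the 37 members, ordered by their value in siPRMT7 replicate 2; red is above and blue below the mean, and the line separates siCtrl (left) from siPRMT7 (right). The siPRMT7 replicate 2 column is red for most genes. Those of siPRMT7 replicate 1 and siPRMT7 replicate 4 lie below the mean for more genes than above it, and that of siPRMT7 replicate 3 is mixed.

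The rest of the splicing pathway was read through 7 lists of 121 genes chosen by function, of which 115 reached the minimum level. None passed limma's adjusted threshold, 11 had an unadjusted p under 0.05 (7 higher and 4 lower), and 9 had groups that did not overlap, shares not above the 13.2% and 8.57% of all genes. These included SNRNP70, which was higher in siPRMT7, and SRPK1, SCAF8, EFTUD2, PRPF8, DDX46, UPF2 and NONO, which were lower. The kinases, phosphatase and importer of SR proteins (10 of 11 tested) had 5 higher and 5 lower means. SRPK1, the cytoplasmic SR kinase, had 22.4 ± 0.306 FPKM in siCtrl and 19.5 ± 1.83 in siPRMT7 (SD, n = 4 each), with every siPRMT7 library below every siCtrl library, at a log2 difference of -0.19 (limma, adjusted p = 0.283). The lowest of them was siPRMT7 replicate 2, at 17.2 FPKM. CLK1, a nuclear SR kinase, had 20.5 ± 1.15 and 23.1 ± 2.03 FPKM (SD, n = 4 each; limma, adjusted p = 0.360).

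Among proteins of the U1 and U4/U6.U5 snRNPs (15 of 15 tested), 9 had a higher and 6 a lower mean, with a median log2 difference of 0.04. SNRNP70, the U1 protein that SR proteins contact at the 5′ splice site, had 30.8, 29.9, 30.7 and 27.3 FPKM in siCtrl and 32.5, 38.1, 31.7 and 34.6 FPKM in siPRMT7. Its groups did not overlap, at a log2 difference of 0.20 (limma, adjusted p = 0.286). PRPF8, the large protein at the spliceosome's core, was lower, with 21.9, 21.8, 21.8 and 24.7 FPKM in siCtrl and 21.7, 12.1, 19.7 and 21.3 FPKM in siPRMT7. The groups did not overlap and siPRMT7 replicate 2 stood far below the rest, so that the log2 difference of -0.29 (limma, adjusted p = 0.457) was -0.10 without that library. EFTUD2, a GTPase of the U5 snRNP, had 28.2 ± 0.704 and 26.4 ± 0.891 FPKM (SD, n = 4 each), also without overlap (log2 difference -0.09, limma, adjusted p = 0.380). SART1, a tri-snRNP protein, had 29.9 ± 1.54 and 33.7 ± 1.52 FPKM (SD, n = 4 each; limma, adjusted p = 0.254). Of the U2 and 3′ splice site factors (18 of 19 tested), 11 were higher and 7 lower, with a median of 0.01. There the helicase DDX46 had 9.11 ± 0.145 and 8.53 ± 0.293 FPKM without overlap, and SF3B3 22.9 ± 0.887 and 20.7 ± 1.59 FPKM (SD, n = 4 each; limma, adjusted p = 0.396 and 0.361). The log2 difference of SF3B3, -0.14, was -0.09 without siPRMT7 replicate 2.

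The SR-related coactivators (25 of 25 tested) had 10 higher and 15 lower means, with a median of -0.03. RSRC2 had 15.7 ± 0.497 and 17.8 ± 1.55 FPKM and SCAF11 11.6 ± 0.438 and 10.7 ± 0.542 FPKM (SD, n = 4 each; limma, adjusted p = 0.315 and 0.369). Among exon junction complex and nonsense-mediated decay factors (15 of 15 tested), which act on the unproductive SR and hnRNP isoforms, 5 were higher and 10 lower, with a median of -0.04. UPF2 had 9.55 ± 0.1503 and 8.67 ± 0.745 FPKM without overlap, and the kinase SMG1 7.44 ± 0.294 and 6.22 ± 1.39 FPKM (SD, n = 4 each; limma, adjusted p = 0.388 and 0.426). SMG1 was lowest in siPRMT7 replicate 2, at 4.45 FPKM. Without that library the log2 difference of SMG1 went from -0.25 to -0.12 and that of UPF2 from -0.13 to -0.07.

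The hnRNPs under other gene names (9 of 9 tested) had 4 higher and 5 lower means, with a median of -0.02. PCBP1, the poly(C)-binding hnRNP E1, had 81.3, 78.6, 84.3 and 77.6 FPKM in siCtrl and 82.7, 93.9, 96.9 and 91.6 FPKM in siPRMT7, with siPRMT7 replicate 1 among the controls (limma, adjusted p = 0.266). SYNCRIP, also called hnRNP Q, had 20.5 ± 0.601 and 19.2 ± 0.619 FPKM (SD, n = 4 each; limma, adjusted p = 0.384). Of the other splicing regulators (23 of 27 tested), 10 were higher and 13 lower, with a median of -0.03. NONO, a paraspeckle protein, had 71.8 ± 0.511 and 68.3 ± 0.764 FPKM without overlap, and MBNL1 27.8 ± 0.821 and 25.7 ± 1.30 FPKM (SD, n = 4 each; limma, adjusted p = 0.389 and 0.359). In siPRMT7 replicate 2 some of these lists were raised as well. The median log2 deviation from the siCtrl mean there was 0.09 for hnRNPs under other gene names and 0.08 for U2 factors. It was 0.06 for U1 and U4/U6.U5 proteins and -0.14 to -0.01 for the other lists. For SR genes it was 0.11, for hnRNP genes 0.13 and for all genes 0.02.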

How the data were processed

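RNA of 8 PC3 samples was selected for poly(A) and sequenced, per the labels. The authors deposited FPKM values for 58735 genes. Tools given by the submitters' processing notes are cutadapt 2.5, HISAT2 2.1.0 and featureCounts 1.6.3. The notes also list the mouse build mm10, although every identifier is human and the positions of all 58735 genes equal those in GENCODE release 29 (GRCh38). FPKM times gene length gave whole fragments for 100% of values, within 0.01 fragments, and the implied library sizes show median-ratio scaling between libraries.

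The main test was limma 3.58.1 on log2(FPKM + 1) (R 4.3.3, variance trend, two-sided, Benjamini-Hochberg over the 13436 genes that reached 1 FPKM in 4 or more libraries, threshold 0.05). This scale understates changes of low genes. Differences are siPRMT7 minus siCtrl. The floor of 3 fragments covers counting error only. Count models planned for a deposited count table were left out, and limma's voom was run on the rebuilt fragments as an alternative. Sequence overlaps were read from GENCODE transcripts, and promoters from RefSeq.

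The members and lists were chosen with earlier results of these data known. Values in every library were to be given for U2AF1, U2AF2, SF3B1, TRA2A, TRA2B, any member that passed or did not overlap, and the highest and lowest tested member of each family. From each other list the 2 genes with the smallest p were named. Per-library values of SRSF1, SRSF2, SRSF9, HNRNPA1, HNRNPA1L2, HNRNPM, HNRNPU, SNRNP70 and PCBP1, and the naming of PRPF8, EFTUD2 and SCAF8, were chosen after values were seen. Alternatives were other pseudocounts, filters, scalings and variance models, voom, a replicate block and leaving out libraries. Leaving out siCtrl replicate 4 and siPRMT7 replicate 2 together was added after seeing the data.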

Additional observations from a re-analysis of the deposited data

Results flagged for a closer look

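Of 76 groups of 4 libraries examined for the members, 4 had a library far from the other 3 by Dixon's criterion, which chance meets in about 1 in 20 groups. SRSF5 was at 90.05 FPKM in siCtrl replicate 4, against 109.3 to 110.8 in the other siCtrl libraries. The other 3 lay in siPRMT7 replicate 2. HNRNPM was at 87.2 FPKM there, against 68.1 to 71.2 in the other siPRMT7 libraries. SRSF2 was at 59.1 FPKM, against 49.1 to 50.2. TRA2B was at 19.7 FPKM, against 18.2 to 18.3.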

How the results depend on the processing

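Under all 20 alternatives 0 members were called. Their smallest adjusted p was 0.111 (limma, without siPRMT7 replicate 1), and the adjusted p of SRSF9 ranged from 0.111 to 0.611 and that of SRSF5 from 0.157 to 0.649 without a block. Members at an unadjusted p under 0.05 numbered 0 to 4. Over all genes 2 were called, both higher. This count was 1 with genes of at least 5 FPKM, with a pseudocount of 0.1, after quantile normalization and without siCtrl replicate 4 and siPRMT7 replicate 2 together, 5 with no filter, 11 with protein-coding genes alone, 12 with voom and 58 with library weights. It ranged from 0 to 4 when single libraries were left out: 0 without any 1 siCtrl library or siPRMT7 replicate 3, and 4 without siPRMT7 replicate 1. Same-numbered libraries deviated with correlations of -0.0314 to 0.0613, and 0 of 4 siCtrl libraries correlated best with their own number. No deviation shared by number was seen, which cannot show whether the samples were paired. With the replicate block 0 genes were called and the PRMT7 level differed by -0.424 FPKM (exact p = 0.125, the smallest that 4 pairs allow). On the TPM scale (equal sums per length) the PRMT7 level differed by -0.557 (exact permutation p = 0.0286). The members' median log2 difference was -0.0299 after quantile normalization. On the TPM scale the median of all genes was -0.0352, against -0.0015 as reported, and the list medians moved alike, by -0.0405 to -0.0222. They were -0.0255 for SR kinases, -0.0653 for SR-related coactivators, 0.00077 for U1 and U4/U6.U5 proteins, -0.0274 for U2 factors and -0.0676 for other regulators. After quantile normalization they were -0.0575 for coactivators, 0.0077 for U1 and U4/U6.U5 proteins and -0.0538 for other regulators. With genes of at least 5 FPKM they were -0.0535 for SR kinases and -0.0453 for other regulators, whose median was -0.0099 with no filter. The SR kinase median ranged from -0.0177 to 0.0208 when single libraries were left out, with the lowest without siCtrl replicate 4. The cause of the shifts under quantile normalization was not tested. SRSF12, HNRNPUL2-BSCL2 and the HNRNPCL genes had no more than 5 fragments in any library. SRSF12 shares 0% of its 100-base windows with other genes, and for it a low level of transcript and limited depth cannot be told apart. HNRNPUL2-BSCL2 shares 97.5% of its windows and the HNRNPCL genes 37.5 to 87.2%. For HNRNPUL2-BSCL2 and the HNRNPCL genes, a low or absent transcript, depth and the assignment of fragments cannot be told apart.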
